A study of Mus musculus with 42 samples.

Results

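At 35 days after birth (P35), Purkinje cells and Stellate/Basket cells of the mouse cerebellum were compared on whole-genome expression arrays, across all genes measured. The comparison takes the 4 arrays labelled Purkinje cells at P35 and replicates 1 and 2 of those labelled Stellate/Basket cells at P35, 6 of the 40 single arrays of the series. A further Stellate/Basket column of this age, replicate 3, equals the mean of the other 2 in every probe set, within 1e-08, and was left out. The series follows Purkinje cells at 7 ages, P3 to P56, and Stellate/Basket cells at 5, P14 to P56.

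Both groups carried the same transgene, which the mice of line CB6-Tg(Gad1-EGFP)G42Zjh/J have as a Gad67-GFP bac, and all were labelled male. In this line green fluorescent protein is driven by the regulatory region of Gad67, the gene of a GABA-synthesising enzyme, so that inhibitory neurons can be seen and picked. Cerebellar slices were kept in blockers of glutamate receptors and sodium channels (AP5, CNQX and TTX), digested mildly with protease and triturated. Cells were then picked by hand for fluorescence and size of the soma, and their polyadenylated RNA went through repeated amplification before hybridisation. How many cells or animals went into an array is not given in the sources used here. The labels call the replicates biological.

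Purkinje cells are the large GABAergic output neurons of the cerebellar cortex: they receive parallel fibre and climbing fibre input, convert much of it through metabotropic glutamate receptor and calcium store signalling, and fire spontaneously at high rates. Stellate and basket cells are the small GABAergic interneurons of the molecular layer, which inhibit Purkinje cells and each other. Both types descend from progenitors that express the transcription factor Ptf1a, but Purkinje cells are born first and settle in a single layer, next to the Bergmann glia that wrap their dendrites.

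Expression was given as log2 values per probe set. The number of arrays limits the precision, and with 2 Stellate/Basket arrays the test assumes that they vary like the other groups of the series. These 2 differed by more than 1 in 1273 genes, against 250 to 852 for pairs of Stellate/Basket arrays at P14, P21 and P28. The pair of P56 differed that much in 3585 genes. Standard errors and adjusted p at P35 may therefore be too small. Calls required a mean difference of at least 1 on the log2 scale and an adjusted p (limma, Benjamini-Hochberg over 17478 genes) under 0.05. All differences are Purkinje minus Stellate/Basket cells, with the standard error of the fit. In sorted samples such as these, fewer cells of a type and less RNA per cell cannot be told apart.

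The arrays of P35 fell into 2 kinds within each cell type, although all were labelled male. Xist, the RNA of the inactive X chromosome, had log2 values of 11.12 and 10.68 in Purkinje replicates 1 and 2 but 7.03 and 6.83 in replicates 3 and 4, against 12.54 and 7.55 in Stellate/Basket replicates 1 and 2. Eif2s3y, a gene of the Y chromosome, ran the other way, at 4.40, 4.41, 7.37 and 7.25 in the Purkinje arrays and 4.39 and 7.69 in the Stellate/Basket arrays. 3 arrays thus had high Xist with low Eif2s3y, and the other 3 the opposite, with both cell types on either side. Purkinje replicates 1 and 2 differed from each other by more than 1 in 85 genes and replicates 3 and 4 in 16, whereas 1328 to 1729 genes differed that much across these pairs. Replicates 1 and 2 both lay at least 1 below 3 and 4 in 625 genes and at least 1 above them in 141. The 90th percentile of all values was 8.82 and 8.79 in Purkinje replicates 1 and 2, against 9.19 and 9.14 in replicates 3 and 4. Xist class and array signal thus cannot be told apart among the Purkinje arrays. Stellate/Basket replicates 1 and 2 differed by more than 1 in 1273 genes, with 90th percentiles of 8.89 and 8.93. Differences were therefore also taken within the 3 high-Xist and within the 3 low-Xist arrays.

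The sort was checked against genes that mark the cell types. Gad1, which encodes the enzyme GAD67 and drives the reporter, was at 12.39, 12.47, 12.57 and 12.50 in Purkinje arrays and at 12.48 and 12.66 in Stellate/Basket arrays. These ranges overlapped, and the difference of -0.09 ± 0.16 did not pass (limma adjusted p = 0.749). Gad2, the gene of the sister enzyme, likewise gave -0.10 ± 0.22 (adjusted p = 0.796).

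Molecular layer interneuron markers marked the Stellate/Basket arrays. Kit, a receptor tyrosine kinase that defines these interneurons in the cerebellum, was at 5.39, 5.17, 5.59 and 5.55 in Purkinje arrays and at 9.77 and 10.85 in Stellate/Basket arrays. The groups lay far apart, with a difference of -4.88 ± 0.31 (limma adjusted p = 2.05e-13). Over the 11 measured markers, the mean per array ran from 5.94 to 6.14 in Purkinje arrays and was 8.40 and 9.15 in Stellate/Basket arrays. Of them, 7 were lower in Purkinje arrays and 0 higher, with a median difference of -3.50, where 5.5% of all genes were called lower and 5.86% higher.

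Over 14 measured Purkinje markers the mean was 12.42 to 12.55 in Purkinje arrays and 9.77 and 10.03 in Stellate/Basket arrays. Of them 8 were called higher (6 without Stellate/Basket replicate 1), with a median difference of 2.15. Pcp2, a Purkinje cell protein that modulates G protein signalling, was at 13.43, 13.37, 12.89 and 13.18 in Purkinje arrays and at 12.73 and 12.18 in Stellate/Basket arrays. The arrays did not overlap, yet the difference of 0.76 ± 0.53 did not pass (limma adjusted p = 0.352). Pvalb, a calcium buffer that both cell types are known to express, gave -0.16 ± 0.49 (adjusted p = 0.867). Calb1, the calcium buffer calbindin, was between 13.58 and 13.72 in Purkinje arrays and at 9.23 and 11.03 in Stellate/Basket arrays (3.52 ± 1.07, adjusted p = 0.0174). Its call was lost without Stellate/Basket replicate 1 (2.61) and without Purkinje replicates 1 and 2 (3.46).

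Markers of glia and granule cells also moved with the cell type label. Astrocyte and Bergmann glia markers had means of 8.48, 7.17, 6.52 and 6.88 in Purkinje replicates 1 to 4 and of 10.04 and 9.82 in Stellate/Basket arrays, and 9 of 12 were called lower in Purkinje arrays. Among the Purkinje arrays, replicate 1 had the highest value for 11 of these 12 genes. Granule cell markers were at 6.43 to 6.51 in Purkinje arrays and at 7.82 and 7.99 in Stellate/Basket arrays, with 6 of 11 called lower (4 without Stellate/Basket replicate 1). Their part in the lower genes below was not tested. Of the other marker lists, 1 of 9 Golgi, Lugaro and unipolar brush cell markers was called lower. This was Calb2, which is also on the granule cell list and counted there. Also called lower were 1 of 8 oligodendrocyte markers, 1 of 9 microglia markers and 2 of 12 endothelial, mural and meningeal markers. The call was higher for 1 of 6 oligodendrocyte precursor markers, and 0 of 4 blood cell markers was called. Without Stellate/Basket replicate 2 the microglia calls were 0 and the endothelial calls 1, without its replicate 1 the Golgi, Lugaro and unipolar brush cell calls were 0, and without Purkinje replicates 3 and 4 the oligodendrocyte precursor calls were 0. Endothelial, mural and meningeal markers averaged 6.26 to 6.63 in Purkinje arrays and 6.55 and 7.38 in Stellate/Basket replicates 1 and 2, and microglia markers 5.84 to 5.89 in Purkinje arrays and 5.82 and 6.39 in Stellate/Basket arrays, so that Stellate/Basket replicate 2 was the highest array for both lists.

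**Figure D1:**
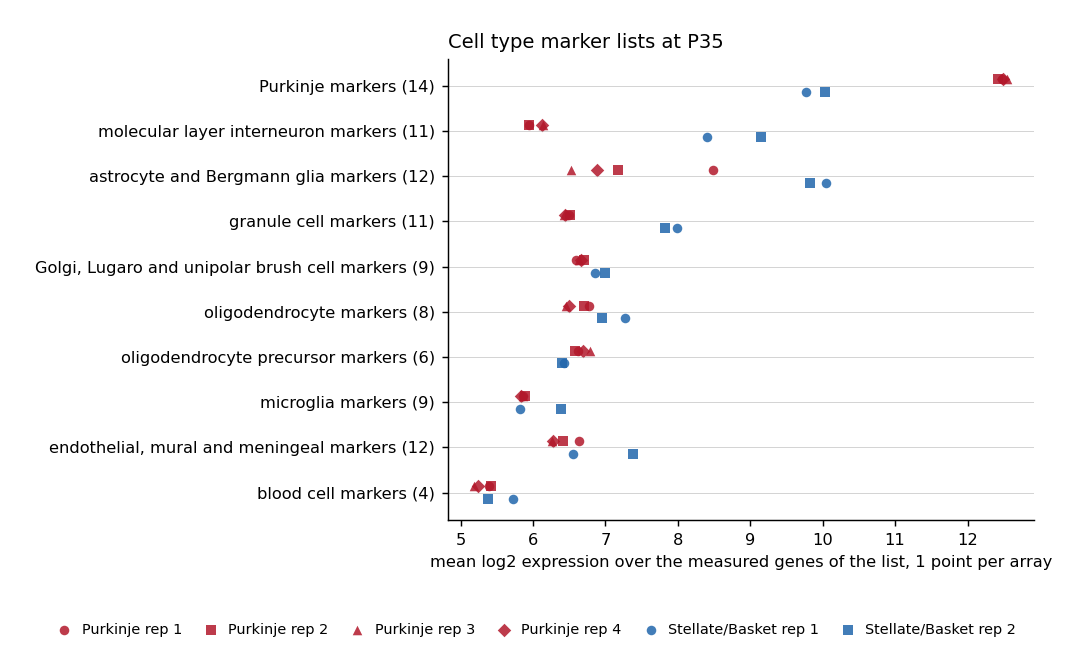
Mean log2 expression of each cell type marker list in the 6 arrays of P35, with the number of measured genes in brackets, Purkinje arrays in red above Stellate/Basket arrays in blue. Purkinje markers lie at 12.42 to 12.55 in Purkinje arrays and at 9.77 and 10.03 in Stellate/Basket arrays, and Purkinje replicate 1 stands at 8.48 for astrocyte and Bergmann glia markers.

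Across the 17478 genes, 1985 (11.4%) were called between the cell types at P35, 1024 of them (5.86%) higher and 961 (5.5%) lower in Purkinje arrays. Of the called genes, 997 and 931 had Purkinje arrays that all lay above, or all below, both Stellate/Basket arrays. Such a separation without any test held for 36.9% of all genes, 18.3% with Purkinje arrays above and 18.6% with them below. The median called difference was 1.52 among the higher genes and -1.54 among the lower ones, and 98 higher and 121 lower genes differed by at least 3. In the high-Xist and in the low-Xist arrays alike, 703 of the higher and 614 of the lower genes differed by at least 1 in their direction. The direction was the same in both classes for 1024 higher and 955 lower genes. The difference used for the calls is the mean of the differences in the 2 classes, so this agreement is largely set by the call. It is no separate support, and no share over all genes is given. Each of these classes held 1 Stellate/Basket array, so no calls are given within them, and both are subsets of the same 6 arrays.

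**Figure D2:**
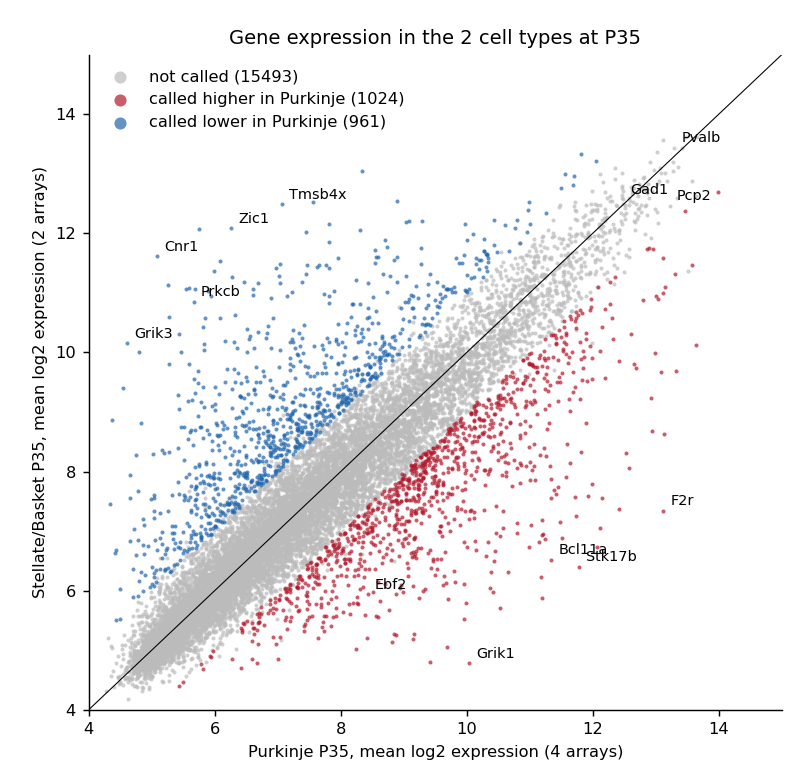
Mean log2 expression of 17478 genes at P35 in Purkinje arrays (x axis, 4 arrays) and in Stellate/Basket arrays (y axis, 2 arrays). Red points are the 1024 genes called higher and blue points the 961 called lower in Purkinje arrays, grey points were not called, and the line marks equal values; Pcp2, Pvalb and Gad1 lie near the line at its upper end.

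The leading genes were chosen as the 15 largest called differences in each direction among genes whose cell types did not overlap, so their separation is part of the choice. Those toward Purkinje arrays spanned signalling receptors, kinases, ion channel partners and a transcription factor. F2r, the thrombin receptor PAR1, was at 12.92, 13.20, 13.02 and 13.35 in Purkinje arrays and at 5.80 and 8.88 in Stellate/Basket arrays. Every Purkinje array lay above both Stellate/Basket arrays, which were themselves 3.09 apart, and the difference was 5.78 ± 0.87 (limma adjusted p = 6.46e-06). For F2r at P35 it was 4.24 without Stellate/Basket replicate 1 and 7.32 without replicate 2. Stk17b, a serine/threonine kinase also known as DRAK2, had 11.76, 11.67, 11.80 and 11.91 in Purkinje arrays, against 5.94 and 6.85 in Stellate/Basket arrays (5.39 ± 0.46, adjusted p = 1.56e-10). Here the spread within each group was small beside the gap between them.

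Rasl11b, a small GTPase of the Ras family, was at 11.98 to 12.15 in Purkinje arrays and at 6.07 and 7.41 in Stellate/Basket arrays. Nell1, a secreted protein with epidermal growth factor repeats, was at 11.02 to 11.41 in Purkinje arrays and at 6.38 and 5.39 in Stellate/Basket arrays. Both differences came to 5.32. Plxdc1, a transmembrane protein with a plexin-like domain, differed by 5.05 ± 0.46, and Casq2, the calsequestrin that buffers calcium inside the endoplasmic reticulum, by 4.96 ± 0.38. Also among the 15 were Ptprr, Cep76, Prkd1, Plekhd1, Smpx and Tmem255a, whose differences lay between 4.60 and 5.07.

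The 15 largest differences toward Stellate/Basket arrays included a cannabinoid receptor, transcription factors and cell surface proteins. Cnr1, the cannabinoid receptor CB1 that sits on interneuron and parallel fibre terminals, was at 5.29, 5.02, 4.98 and 5.06 in Purkinje arrays, near the low end of the scale, and at 11.43 and 11.80 in Stellate/Basket arrays (-6.53 ± 0.50, limma adjusted p = 1.60e-11). Btbd11, which encodes an ankyrin repeat and BTB domain protein, was at 6.38, 6.13, 5.17 and 5.32 in Purkinje arrays and at 11.91 and 12.26 in Stellate/Basket arrays (-6.33 ± 0.29, adjusted p = 6.18e-17). Both genes split the cell types cleanly, and Purkinje replicates 1 and 2 lay above replicates 3 and 4 for Btbd11.

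Megf10, an engulfment receptor of glia and some interneurons, was at 6.41, 5.22, 5.13 and 5.65 in Purkinje arrays and at 10.94 and 11.22 in Stellate/Basket arrays. Tmsb4x, the actin-sequestering thymosin beta 4, was at 8.94, 6.78, 6.13 and 6.43 in Purkinje arrays and at 12.63 and 12.35 in Stellate/Basket arrays. For both, Purkinje replicate 1 was the highest of its group. Cnpy1 differed by -5.46 ± 0.75 with Purkinje values of 4.72, 4.99, 7.03 and 7.58, split by the pairs that differed in Xist and in array signal. Lin7a, a scaffold of synaptic membranes, differed by -5.39 ± 0.29, and Lypd6, a modulator of nicotinic receptors, by -5.33 ± 0.67.

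**Figure D3:**
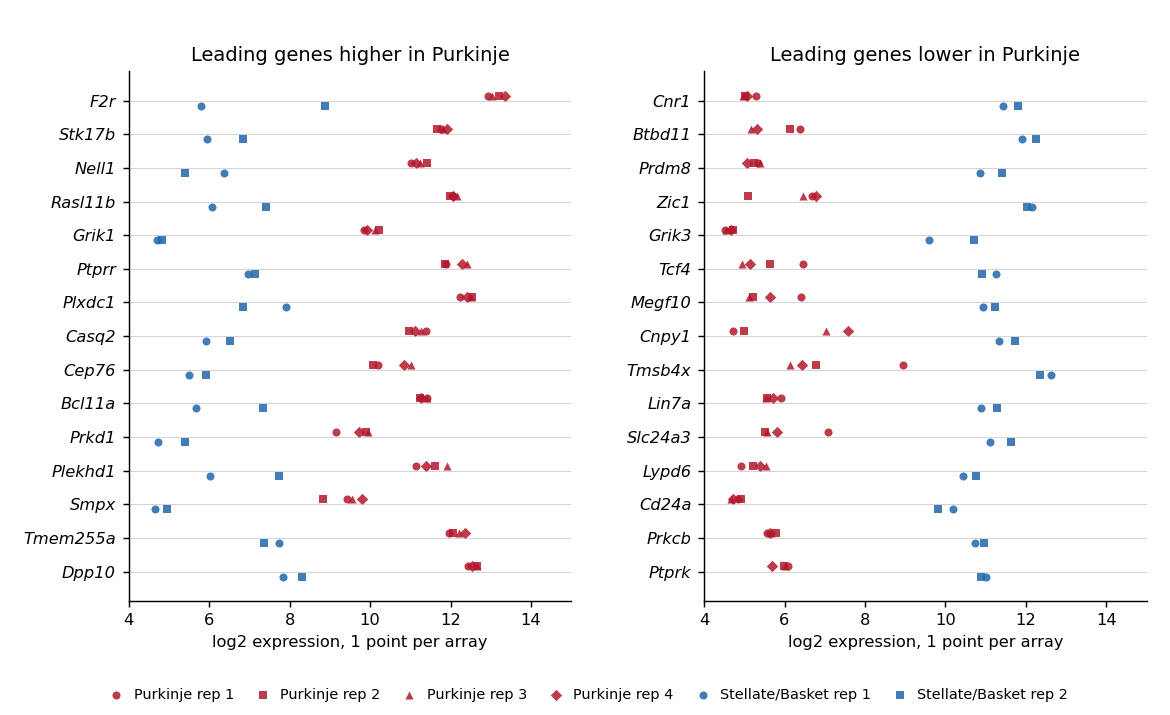
Log2 expression in each of the 6 arrays of P35 for the 15 leading genes higher (left) and lower (right) in Purkinje cells, Purkinje arrays in red and Stellate/Basket arrays in blue, with the symbol giving the replicate. Genes were chosen for cell types that do not overlap; F2r has its Stellate/Basket arrays 3.09 apart, and Cnpy1 and Tmsb4x have the widest spread of Purkinje arrays.

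To show sequence beside these values, the RefSeq promoter windows of the 2 leading genes in each direction are printed 5′ to 3′ in the direction of the gene (build GRCm38.p6), each 300 bases around the annotated start. They were taken because E-box binding factors differed strongly between the cell types, as described below. Capitals mark matches to the E-box CANNTG, which reads the same on both strands. The windows lie at chr13:95618417-95618716 on the minus strand for F2r, chr1:53785166-53785465 on the minus strand for Stk17b, chr4:33924014-33924313 on the plus strand for Cnr1 and chr10:85386564-85386863 on the plus strand for Btbd11.
F2r: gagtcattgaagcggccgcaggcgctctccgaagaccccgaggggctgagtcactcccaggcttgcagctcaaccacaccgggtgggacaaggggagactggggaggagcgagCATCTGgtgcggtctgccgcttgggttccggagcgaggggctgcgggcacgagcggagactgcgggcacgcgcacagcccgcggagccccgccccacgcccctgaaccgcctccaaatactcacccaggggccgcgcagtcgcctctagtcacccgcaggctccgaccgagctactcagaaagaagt
Stk17b: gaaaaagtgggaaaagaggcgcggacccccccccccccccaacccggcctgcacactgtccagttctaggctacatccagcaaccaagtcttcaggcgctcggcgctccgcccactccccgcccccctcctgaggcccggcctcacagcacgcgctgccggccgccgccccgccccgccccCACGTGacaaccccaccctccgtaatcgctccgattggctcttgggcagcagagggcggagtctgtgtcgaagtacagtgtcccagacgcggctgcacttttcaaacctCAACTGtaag
Cnr1: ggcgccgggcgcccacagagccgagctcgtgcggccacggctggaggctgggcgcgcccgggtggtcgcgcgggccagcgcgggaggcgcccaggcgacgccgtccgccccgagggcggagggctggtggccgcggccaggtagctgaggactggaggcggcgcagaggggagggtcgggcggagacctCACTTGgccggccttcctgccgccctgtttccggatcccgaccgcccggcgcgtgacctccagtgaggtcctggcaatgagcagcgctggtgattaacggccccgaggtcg
Btbd11: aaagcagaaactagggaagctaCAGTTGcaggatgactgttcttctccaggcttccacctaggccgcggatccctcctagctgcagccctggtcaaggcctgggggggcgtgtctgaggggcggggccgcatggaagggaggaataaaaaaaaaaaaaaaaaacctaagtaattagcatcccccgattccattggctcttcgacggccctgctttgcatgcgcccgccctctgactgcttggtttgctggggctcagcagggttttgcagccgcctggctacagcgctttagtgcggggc
Stk17b held 2 matches and the other windows 1 each. Only the first listed window of a gene was searched, although Cnr1 had 3 windows and Btbd11 had 2. A window was found for 12 of the 15 leading genes in each direction, and 8 of those higher and 11 of those lower held an E-box. Over all called genes with a window, an E-box was present in 61.9% of 838 higher and 61.7% of 770 lower genes, against 66.6% of the 13884 tested genes with a window. The core CCCNNGGG of EBF factors was present in 18.4% of the higher and 21.0% of the lower genes, against 17.2% of tested genes. The half-site AGGTCA of nuclear receptors was in 10.7% and 9.9%, against 13.8%. The cAMP response element TGACGTCA was in 3.8% and 2.6%, against 2.7%, and the AP-2 core GCCNNNGGC in 27.2% and 26.8%, against 22.9%. All motifs were searched on both strands, and the median GC content was 62.7% and 62.0% in the 2 sets of called genes, against 59.0%. These shares describe letters in the windows only.

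Of 23 measured transcription factors of the Purkinje lineage, 10 were higher and 3 lower, with a median difference of 0.61. Of 32 factors of the interneuron and granule lineages, 0 were higher and 15 lower (12 without Stellate/Basket replicate 1), with a median of -0.87. Over all genes the median difference was 0.017, with 5.86% called higher and 5.5% lower. These shares stand beside every list count below. Counts given without a left-out value could also move when arrays were left out.

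Bcl11a, a zinc finger repressor also known as CTIP1, led the Purkinje factors at 11.41, 11.25, 11.41 and 11.27 in Purkinje arrays, against 5.68 and 7.35 in Stellate/Basket arrays (4.82 ± 0.47, limma adjusted p = 2.50e-09). The early B cell factors, which guide Purkinje cell migration and survival, moved together: Ebf1 differed by 3.53 ± 0.48, Ebf3 by 3.23 ± 0.45 and Ebf2 by 2.50 ± 0.38. Ebf1 was at 10.44, 10.95, 10.10 and 9.87 in Purkinje arrays and at 7.21 and 6.42 in Stellate/Basket arrays, without overlap. Id2, which binds E proteins and keeps them off DNA, was at 12.63 to 12.72 in Purkinje arrays and at 9.98 and 9.50 in Stellate/Basket arrays (2.93 ± 0.33).

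3 members of the Purkinje lineage list went the other way. Foxp1, a forkhead factor, was at 6.76, 6.99, 7.54 and 7.73 in Purkinje arrays and at 10.41 and 10.33 in Stellate/Basket arrays (-3.12 ± 0.58, limma adjusted p = 0.000137). Esrrg, an orphan nuclear receptor of energy metabolism, differed by -3.10 ± 0.36. Tshz1, a teashirt zinc finger factor, was at 5.38, 5.43, 6.91 and 7.55 in Purkinje arrays and at 9.21 and 9.82 in Stellate/Basket arrays. Its Purkinje arrays were again split by the pairs that differed in Xist and in array signal.

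Among the interneuron and granule factors, Prdm8, a histone methyltransferase family member, was at 5.34, 5.23, 5.39 and 5.08 in Purkinje arrays and at 10.86 and 11.41 in Stellate/Basket arrays (-5.87 ± 0.18, limma adjusted p = 3.40e-21). Zic1, a zinc finger factor of cerebellar progenitors, was at 6.68, 5.10, 6.46 and 6.78 in Purkinje arrays and at 12.16 and 12.02 in Stellate/Basket arrays (-5.83 ± 0.51). Tcf4, an E protein that binds E-boxes, was at 6.46, 5.64, 4.95 and 5.14 against 11.25 and 10.90 (-5.53 ± 0.42). Nfib, a nuclear factor I protein, differed by -4.73 ± 0.36, and Neurod1, an E-box factor known from granule cells, by -4.62 ± 0.40 with 5.62 to 6.07 in Purkinje arrays and 10.11 and 10.75 in Stellate/Basket arrays. Prdm8, Zic1, Tcf4 and Neurod1 each separated the cell types by more than 4 on the log2 scale in every pair of arrays. Neurod1 is itself one of the granule cell markers given above.

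Of 25 ionotropic glutamate receptor genes and partners, 4 were higher and 5 lower (2 higher without Stellate/Basket replicate 2), and the median difference was -0.08. The kainate receptor subunit Grik1 was at 9.84, 10.23, 10.13 and 9.93 in Purkinje arrays and at 4.71 and 4.84 in Stellate/Basket arrays (5.26 ± 0.57, limma adjusted p = 2.15e-08). Its relative Grik3 was at 4.51, 4.71, 4.54 and 4.68 in Purkinje arrays and at 9.58 and 10.72 in Stellate/Basket arrays (-5.55 ± 0.31, adjusted p = 1.15e-14). Each of these subunits was thus near the low end of the scale in one cell type and far above it in the other.

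The AMPA receptor subunit Gria4 was at 8.55, 7.01, 6.22 and 6.11 in Purkinje arrays and at 11.26 and 11.55 in Stellate/Basket arrays (-4.44 ± 0.47). Grid1, a subunit of the ionotropic receptor family, differed by -3.73 ± 0.30, and Grin3a, an NMDA receptor subunit, by -2.39 ± 0.34. Shisa6, an AMPA receptor partner, was higher by 2.29 ± 0.40. Among 6 metabotropic receptors, Grm7 was higher by 3.66 ± 0.34, at 9.31 to 10.36 in Purkinje arrays and 6.25 and 6.04 in Stellate/Basket arrays, and Grm3 was lower by a log2 difference of -3.23 ± 0.42. Of 10 glutamate transporters and related genes, 1 was higher and 5 lower. The higher one, Slc1a6, the transporter EAAT4 of Purkinje dendrites, was at 13.03, 13.02, 13.42 and 13.07 in Purkinje arrays and at 8.35 and 8.92 in Stellate/Basket arrays (4.50 ± 0.47). The lower ones included Slc1a3 (-3.17 ± 0.50) and Slc1a2 (-3.12 ± 0.44), glial transporters, and Glul (-2.97 ± 0.35), the glial glutamine synthetase. Slc1a3 and Slc1a2 are themselves on the astrocyte marker list above, and Glul is not.

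Metabotropic glutamate receptor 1 signalling, the calcium store and protein kinase C formed a list of 26 genes. Of these, 7 were higher (5 without Purkinje replicate 2) and 3 lower, with a median of 0.45. The ryanodine receptor Ryr1, which releases calcium from the store, was at 9.94 to 11.01 in Purkinje arrays and at 6.48 and 5.63 in Stellate/Basket arrays (4.32 ± 0.48, limma adjusted p = 4.47e-08). Homer3, a scaffold that ties the receptor to the store, was higher by 2.30 ± 0.28, while Homer2 was lower by a log2 difference of -2.22 ± 0.29. Plcb3, a phospholipase C that produces the store-releasing messenger, was higher by 2.16 ± 0.29. Prkcb, a conventional protein kinase C, was at 5.56, 5.80, 5.66 and 5.65 in Purkinje arrays and at 10.73 and 10.97 in Stellate/Basket arrays (-5.18 ± 0.22, adjusted p = 1.27e-17), and Prkce, a calcium-independent one, differed by -2.02 ± 0.32. Neither kinase had overlapping groups, as held for 931 of the 961 genes called lower.

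Of 12 calcium pumps and exchangers 3 were higher and 4 lower. The store pumps Atp2a3 and Atp2a2 were higher by 3.80 ± 0.35 and 2.12 ± 0.20, and the plasma membrane pump Atp2b2 by 1.92 ± 0.22. Other plasma membrane pumps were lower: Atp2b3 was at 6.76, 7.04, 7.92 and 7.79 in Purkinje arrays and at 10.83 and 11.53 in Stellate/Basket arrays (-3.80 ± 0.43), and Atp2b1 differed by -1.93 ± 0.40. The potassium-dependent exchanger Slc24a3 was at 7.09, 5.51, 5.56 and 5.82 in Purkinje arrays and at 11.11 and 11.64 in Stellate/Basket arrays (-5.38 ± 0.45). Atp2a3 and Slc24a3 thus moved by more than 3 in opposite directions.

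Of 17 calcium-binding proteins 4 were higher and 3 lower (2 higher without Stellate/Basket replicate 1). Hpcal1, a neuronal calcium sensor, was at 12.91 to 13.14 in Purkinje arrays and at 10.04 and 9.94 in Stellate/Basket arrays (3.00 ± 0.23, limma adjusted p = 2.66e-11). Its relatives Hpcal4 and Vsnl1 were lower by log2 differences of -4.03 ± 0.29 and -4.21 ± 0.48. Among 14 voltage-gated calcium channel genes 4 were higher and 3 lower. The T-type channel Cacna1g was higher by 2.33 ± 0.34 and the auxiliary subunit Cacna2d2 by 2.85 ± 0.44, while the auxiliary subunit Cacna2d3 was lower by a log2 difference of -2.86 ± 0.34 and the L-type channel Cacna1d by one of -1.74 ± 0.20.

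Of 47 potassium channel genes 10 were higher (7 without Stellate/Basket replicate 1) and 3 lower, with a median of 0.14. The largest differences were those of auxiliary subunits: Dpp10, a partner of A-type channels, was at 12.44, 12.66, 12.65 and 12.53 in Purkinje arrays and at 7.83 and 8.30 in Stellate/Basket arrays (4.51 ± 0.37, limma adjusted p = 9.24e-11). Kcnab1, a beta subunit of the Kv1 channels, was higher by 4.33 ± 0.50, and Kcnip1 and Kcnip4, calcium-binding partners of the same A-type channels as Dpp10, by 3.22 ± 0.38 and 3.05 ± 0.44. The Kv3 channel Kcnc4 was at 6.99 to 7.40 in Purkinje arrays and at 9.85 and 10.50 in Stellate/Basket arrays (-2.92 ± 0.29), and Kcna2, a Kv1 channel of basket cell terminals, differed by -1.32 ± 0.21. The 3 measured genes of the HCN channel list were not called.

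Of 13 sodium channel genes and partners 5 were higher and 2 lower, and without Stellate/Basket replicate 1 the higher ones were 2. The median of the list was -0.00, with 6 genes above 0, 6 below and the remaining gene at -0.00 after rounding. Scn4b, the beta subunit linked to resurgent current, was at 10.96, 11.09, 11.49 and 11.22 in Purkinje arrays and at 7.11 and 7.24 in Stellate/Basket arrays (4.02 ± 0.33, limma adjusted p = 1.15e-10). The alpha subunit Scn2a was at 6.73 to 7.38 in Purkinje arrays and at 9.84 and 10.23 in Stellate/Basket arrays (-2.99 ± 0.41). Of the intracellular fibroblast growth factor homologues that bind these channels, Fgf11 was higher by 1.42 ± 0.30 and Fgf13 lower by a log2 difference of -3.61 ± 0.28.

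Of 12 GABA-A receptor subunits 0 were higher and 3 lower (1 without Stellate/Basket replicate 1), where 5.86% of all genes were higher and 5.5% lower. Gabrb1 was at 8.84, 7.39, 6.82 and 7.04 in Purkinje arrays and at 9.46 and 9.73 in Stellate/Basket arrays (-2.07 ± 0.40). In the list of 23 genes for GABA and glycine synthesis, transport, GABA-B and glycine receptors, 2 were higher (1 without Purkinje replicate 3) and 1 lower (0 without Purkinje replicate 2). Gabbr1, a GABA-B receptor subunit, differed by 2.13 ± 0.24 in the probe set used, but its probe sets ran from -2.69 to 2.13, so that they disagree in sign. The endocannabinoid list had 2 of 9 higher (1 without Stellate/Basket replicate 1) and 2 lower (1 without Purkinje replicates 1 and 2). Dagla, which makes the endocannabinoid 2-AG, was at 10.40, 10.30, 10.90 and 10.88 in Purkinje arrays and at 8.09 and 7.90 in Stellate/Basket arrays (2.62 ± 0.28, limma adjusted p = 1.67e-08), while the receptor gene Cnr1 was the largest difference in the other direction. Of 26 receptors for amines, acetylcholine, purines and opioids, F2r included, 2 were higher and 0 lower, with 1 higher without Purkinje replicate 3. Among all genes 5.86% were higher and 5.5% lower.

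**Figure D4:**
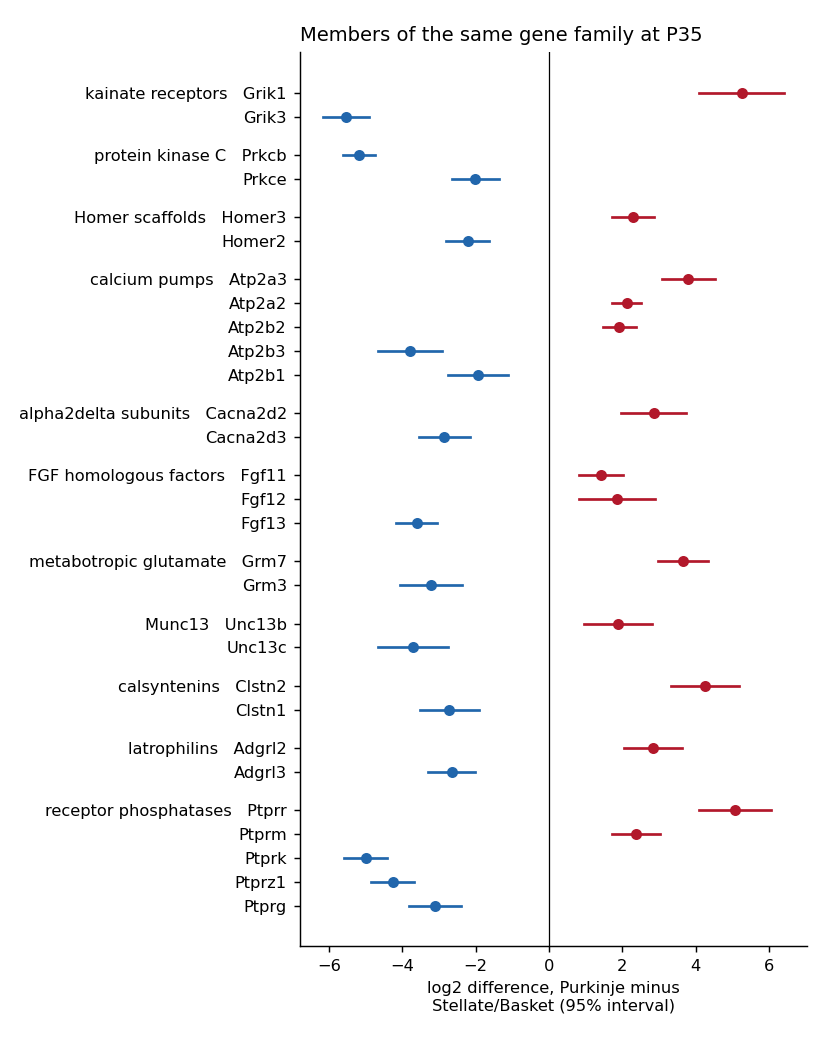
Log2 difference, Purkinje minus Stellate/Basket arrays at P35, for members of the same gene family, with 95% intervals from limma; red was called higher and blue lower in Purkinje arrays. The families were chosen after their values were seen because members lie on both sides of 0, as Grik1 at 5.26 and Grik3 at -5.55, except protein kinase C, whose 2 members shown are both lower. The calls of Fgf12 and Unc13b were lost without Stellate/Basket replicate 1 (1.49) and replicate 2 (1.66).

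Neuropeptide genes gave 4 higher and 2 lower of 27, where 5.86% of all genes were higher and 5.5% lower. Cck, the cholecystokinin precursor, was at 11.12, 11.18, 9.76 and 9.69 in Purkinje arrays and at 6.53 and 6.46 in Stellate/Basket arrays (3.94 ± 0.50, limma adjusted p = 3.92e-07). Its high-Xist Purkinje arrays lay above its low-Xist ones, and all lay above the Stellate/Basket arrays. Penk, the enkephalin precursor, was at 6.33 to 6.71 in Purkinje arrays and at 9.52 and 10.92 in Stellate/Basket arrays (-3.66 ± 0.47). Scg2, a granin of dense-core vesicles, was higher by 2.28 ± 0.39.

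Of 44 genes of the vesicle release machinery 3 were higher and 12 lower, although the median was 0.13. Unc13c, a Munc13 priming factor, was at 6.43, 5.66, 7.45 and 6.69 in Purkinje arrays and at 10.35 and 10.19 in Stellate/Basket arrays (-3.71 ± 0.47, limma adjusted p = 4.24e-07). Syn2, a synapsin that tethers vesicles, differed by -2.51 ± 0.22 and Syt17, a member of the synaptotagmin family, by -2.60 ± 0.40. Doc2b, a calcium sensor of release, was higher by 2.70 ± 0.39. Synpr, a synaptic vesicle protein, was at 4.62 to 4.67 in Purkinje arrays and at 6.66 and 9.23 in Stellate/Basket arrays, and its difference of -3.29 was -2.01 without Stellate/Basket replicate 2.

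Of 44 synaptic organisers 8 were higher and 8 lower. Clstn2, a calsyntenin, was at 10.45, 10.06, 11.89 and 11.52 in Purkinje arrays and at 6.85 and 6.61 in Stellate/Basket arrays (4.25 ± 0.45, limma adjusted p = 1.87e-08), while Clstn1 was lower by a log2 difference of -2.72 ± 0.39. The latrophilin Adgrl2, an adhesion receptor for teneurins and FLRT proteins, was higher by 2.84 ± 0.39 and its relative Adgrl3 lower by one of -2.66 ± 0.32. Flrt2, a latrophilin ligand, differed by -2.22 ± 0.37. Of 16 receptor tyrosine phosphatases 3 were higher and 5 lower. Ptprr was at 11.88, 11.87, 12.42 and 12.29 in Purkinje arrays and at 6.97 and 7.13 in Stellate/Basket arrays (5.07 ± 0.49), whereas Ptprk was at 5.69 to 6.08 in Purkinje arrays and at 11.01 and 10.88 in Stellate/Basket arrays (-5.00 ± 0.29). Ptprz1, also abundant in glia, differed by -4.27 ± 0.29.

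Of 27 cadherins and protocadherins 3 were higher and 2 lower, counts near the 5.86% and 5.5% of all genes, with 6 higher and 3 lower without Purkinje replicates 1 and 2. Of 29 immunoglobulin adhesion and axon initial segment genes 8 were higher and 5 lower, with 5 higher without Purkinje replicates 3 and 4. Chl1, a cell adhesion molecule of the L1 family, was at 7.42, 5.88, 6.86 and 7.40 in Purkinje arrays and at 10.38 and 11.46 in Stellate/Basket arrays (-4.03 ± 0.44), while its relative Nrcam was higher by 2.34 ± 0.39. Ncam1 gave -2.70 ± 0.29 in the probe set used, but its probe sets ran from -3.15 to 2.51.

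Of 57 axon guidance genes 6 were higher and 14 lower (11 without Stellate/Basket replicate 1), with a median of -0.14. Among all genes 5.86% were higher and 5.5% lower. Sema3e, a secreted semaphorin, was at 6.83, 7.03, 7.27 and 7.42 in Purkinje arrays and at 10.59 and 11.30 in Stellate/Basket arrays (-3.81 ± 0.47, limma adjusted p = 2.16e-07). The netrins Ntn4 and Ntn1 and the netrin receptor Neo1 were lower by log2 differences of -3.64 ± 0.50, -2.73 ± 0.34 and -3.03 ± 0.32, while another netrin receptor, Unc5d, was higher by 2.91 ± 0.43. Sema3a, a repellent semaphorin, and Sema7a, a membrane-anchored one, were higher by 2.15 ± 0.31 and 3.04 ± 0.35, and the ephrin receptor Epha5 by 3.06 ± 0.49. None of these genes had overlapping cell types, as held for 997 of the 1024 genes called higher and 931 of the 961 called lower.

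Of 37 growth factors and receptors 6 were higher and 6 lower. Kitl, the ligand of the receptor Kit, was at 11.50, 11.49, 11.86 and 12.01 in Purkinje arrays and at 6.91 and 8.26 in Stellate/Basket arrays (4.13 ± 0.52, limma adjusted p = 3.78e-07). Ligand and receptor thus stood on opposite sides, Kitl with the Purkinje and Kit with the Stellate/Basket arrays. Tgfb2, a transforming growth factor, was higher by 3.68 ± 0.38 and Igf1, an insulin-like growth factor, by 3.02 ± 0.59. Fgfr2, a fibroblast growth factor receptor, was lower by a log2 difference of -1.61 ± 0.25. Of 40 G protein subunits and regulators 5 were higher and 7 lower, the lower ones being 4 without Stellate/Basket replicate 1. Among all genes 5.86% were higher and 5.5% lower. Rgs8, a Purkinje regulator of G protein signalling, was higher by 2.14 ± 0.22 and Rgs17 lower by a difference of -2.67 ± 0.25.

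Of 13 genes known to vary in stripes across Purkinje cells, the zebrin pattern, 8 were higher and 2 lower, with a median of 1.39 and 4 higher without Stellate/Basket replicate 1. Higher members were Slc1a6, Plcb3 and Ebf2, whose values stand above, and Aldoc, the aldolase that defines the stripes, whose call at 1.30 was lost without Stellate/Basket replicate 1 (1.32) or replicate 2 (1.27). Nos1, neuronal nitric oxide synthase, was one of the lower ones, at 8.53 to 8.99 in Purkinje arrays and at 10.52 and 11.53 in Stellate/Basket arrays (-2.28 ± 0.29, limma adjusted p = 3.52e-07). Of 26 inherited ataxia genes 1 was higher and 2 lower (1 lower without Purkinje replicate 1), close to the 11.4% called among all genes. The higher one, the calcium channel subunit Cacnb4, differed by 1.36 ± 0.28.

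Of 31 neurofilament, microtubule protein and thymosin genes 7 were higher and 5 lower (4 and 3 without Stellate/Basket replicate 1). Nefh, the heavy neurofilament of large axons, was at 11.12, 11.08, 11.85 and 11.46 in Purkinje arrays and at 7.05 and 8.34 in Stellate/Basket arrays (3.68 ± 0.39, limma adjusted p = 1.41e-08), and Nefm, the medium one, was higher by 2.57 ± 0.49. Tmsb10, thymosin beta 10, was at 7.86, 6.57, 8.61 and 8.78 in Purkinje arrays and at 11.71 and 11.46 in Stellate/Basket arrays (-3.63 ± 0.87). Of 20 genes of immature neurons and neurite growth 2 were higher and 10 lower (1 and 4 without Stellate/Basket replicate 1). Gap43, a growth cone protein, was at 5.29 to 5.72 in Purkinje arrays and at 8.95 and 8.54 in Stellate/Basket arrays (-3.23 ± 0.21), and Cd24a, a surface glycoprotein of young neurons, at 4.68 to 4.93 in Purkinje arrays and at 10.20 and 9.82 in Stellate/Basket arrays (-5.21 ± 0.52). Stmn2, a microtubule regulator, was higher by 1.83 ± 0.35.

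In the extracellular matrix list 3 of 24 genes were higher and 6 lower. Tnr, tenascin R, a matrix protein of perineuronal nets, was at 4.21 to 4.65 in Purkinje arrays and at 8.48 and 9.25 in Stellate/Basket arrays (-4.50 ± 0.32, limma adjusted p = 4.11e-12). Hapln4, a link protein known from inhibitory synapses on Purkinje targets, was higher by 2.05 ± 0.29.

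Of 34 measured ribosomal protein genes, 0 were called higher and 17 lower, with a median of -1.01, and 32 had a difference below 0. The list means were 9.38 to 9.86 in Purkinje arrays and 10.48 and 10.78 in Stellate/Basket arrays. Without Stellate/Basket replicate 1 the lower calls were 10. Rps19 was at 8.83, 8.56, 7.49 and 7.79 in Purkinje arrays and at 10.90 and 10.30 in Stellate/Basket arrays (-2.43 ± 0.29). Purkinje replicate 1 was the highest Purkinje array for 25 of the 34 genes. Immediate early and stress genes, which report recent activity or handling, had 2 of 35 higher and 12 lower (7 without Stellate/Basket replicate 1). Dusp1, a phosphatase induced by stress and activity, was at 6.08 to 6.60 in Purkinje arrays and at 8.94 and 8.90 in Stellate/Basket arrays (-2.54 ± 0.47).

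In the endoplasmic reticulum folding and secretory list 5 of 29 genes were higher and 0 lower, where 5.86% of all genes were higher, with a median of 0.43, and 8 were higher without Purkinje replicate 2. Sec61a1, the channel through which proteins enter the endoplasmic reticulum, was higher by 1.92 ± 0.35 and Hspa5, its chaperone BiP, by 1.73 ± 0.31. Of 44 oxidative phosphorylation genes 2 were higher and 0 lower, where 5.86% and 5.5% of all genes were. There were 0 higher without Stellate/Basket replicate 1 and 5 lower without Purkinje replicates 1 and 2. Of 20 glycolysis genes 3 were higher, and 0 without Stellate/Basket replicate 1. Of 19 cholesterol synthesis genes 0 were called. Of 19 clock genes 1 was higher and 4 lower, with 1 lower without Stellate/Basket replicate 2. Clock, a core activator of the circadian loop, was at 7.97 to 8.27 in Purkinje arrays and at 10.46 and 10.18 in Stellate/Basket arrays (-2.24 ± 0.22), while the call of its partner Arntl, at 1.70, was lost without Purkinje replicates 3 and 4 (0.95). Of 4 sex-linked genes 0 were called.

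Some called genes rested on 1 array of a group. Vtn, a vitronectin of pericytes, was at 5.54 to 5.70 in Purkinje arrays and at 5.58 and 9.57 in Stellate/Basket arrays, and its difference of -1.96 was 0.03 without replicate 2. Ackr3, a chemokine receptor of vessels and some interneurons, was at 5.38 and 8.82 in the Stellate/Basket arrays, and its difference of -2.22 was -0.50 without replicate 2. Wif1, a Wnt inhibitor, was at 9.05 and 5.85 there, and its difference of -3.11 was -1.50 and no longer called without replicate 1. Slc7a3, a cationic amino acid transporter, was at 9.34 and 5.98, and its difference of -1.85 was -0.17 without replicate 1. In all, 354 called genes had Stellate/Basket arrays more than 1 apart, and 50 had them more than 2 apart.

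On the Purkinje side the widest spread lay in Timp4, Gja1, Gpsm1 and Apoe among the genes described. Timp4, a protease inhibitor, was at 10.56, 7.80, 5.27 and 6.17 in Purkinje replicates 1 to 4 and at 12.38 and 11.66 in Stellate/Basket arrays, and its difference of -4.57 was -2.84 without Purkinje replicates 3 and 4. Gja1, the astrocyte gap junction protein connexin 43, was at 9.89, 6.03, 5.34 and 6.85 in Purkinje arrays and at 11.16 and 11.83 in Stellate/Basket arrays. Its call at -4.46 was lost without Stellate/Basket replicate 2 (-4.13) and without Purkinje replicates 3 and 4 (-3.53). Apoe, a lipid carrier secreted by astrocytes, was at 9.28, 6.28, 5.33 and 5.86 in Purkinje arrays, against 11.89 and 10.44 (-4.48 ± 0.74). In Timp4, Gja1 and Apoe, replicate 1 was the highest Purkinje array, as for the astrocyte markers above, of which Timp4 and Gja1 are members. Gpsm1, a modulator of G protein signalling, was instead split by pairs, at 6.35, 6.12, 9.40 and 9.16 in Purkinje arrays and at 11.32 and 11.62 in Stellate/Basket arrays, and its difference of -3.71 was -2.19 without Purkinje replicates 1 and 2.

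The cell type differences of P35 were then set beside those of the other shared ages. All Stellate/Basket arrays of P14, P21 and P28 had high Xist, at 12.29 to 12.93. Purkinje arrays were all low at P14, at 6.47 to 6.59, and of both kinds at P21, P28 and P56. Stellate/Basket replicate 1 of P56 had Xist at 11.42 with Eif2s3y at 7.92, and replicate 3 had 11.79 with 4.41. Age and Xist class therefore cannot be fully told apart in these comparisons. Of the genes higher at P35, 66.7% were also called higher at P14, 69.7% at P21, 68.8% at P28 and 63.4% at P56, where 6.59%, 6.81%, 8.36% and 14.8% of all genes were. Of those lower at P35, 63.5%, 70.8%, 76.1% and 38.1% were called lower at P14, P21, P28 and P56, where 6.73%, 6.67%, 8.14% and 5.82% of all genes were. In either direction 13.3%, 13.5%, 16.5% and 20.6% of all genes were called at those ages. As a share of the other list, the common genes were 59.3%, 60%, 48.2% and 25.1% of the higher and 51.9%, 58.4%, 51.4% and 36% of the lower genes at those ages. At P56, 67 of the genes lower at P35 were called the other way. 392 higher and 183 lower genes were called at all 5 ages, and 79 higher and 104 lower genes at P35 alone. Being called at P35 alone does not show a difference between ages: of these, 3 and 19 were called when P35 was tested against the mean of the other 4 ages.

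All 15 leading higher and all 15 leading lower genes were called the same way at P14, P21 and P28, and 14 and 10 of them at P56. Prdm8 differed by -6.84, -6.36, -6.45, -5.87 and 0.32 at P14, P21, P28, P35 and P56, and Grik3 by -5.15, -5.62, -5.98, -5.55 and 0.04. At P56 both were near the low end of the scale in both cell types, at 5.46 and 5.14 for Prdm8 and at 4.54 and 4.50 for Grik3 in Purkinje and Stellate/Basket arrays. Zic1, by contrast, differed by -7.43, -5.35, -6.46, -5.83 and -5.87 over the same ages. The list of interneuron markers had a median difference of -0.16 at P56, against -3.50 at P35. Here too, fewer cells of a type and less RNA per cell cannot be told apart.

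**Figure D5:**
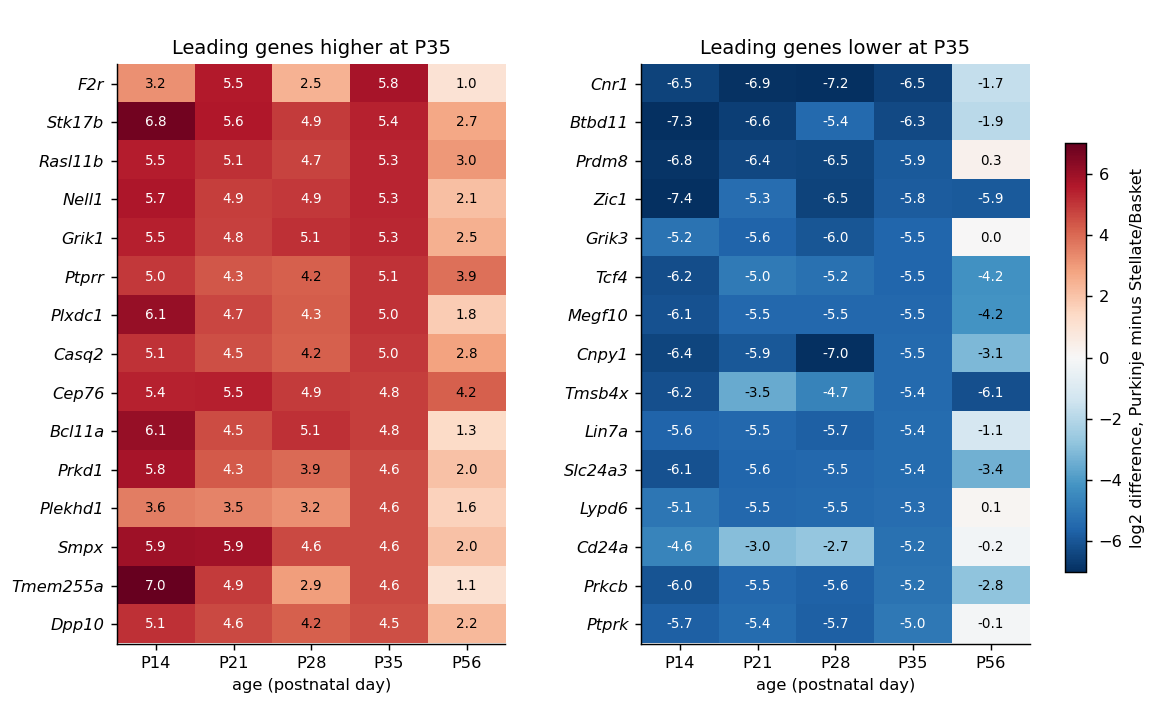
Log2 difference, Purkinje minus Stellate/Basket arrays, at each of the 5 shared ages for the 15 leading genes higher (left) and lower (right) at P35, with the value in each cell and the colour running from blue (lower in Purkinje) to red (higher). Every cell of P14 to P35 is red in the left and blue in the right panel, while the P56 column is pale for Prdm8 at 0.32 and Grik3 at 0.04 and dark for Zic1.

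In the main setting, tests of the difference between ages gave few genes against P28 and many against P56. This order did not hold in every setting: array weights gave 609 genes against P28 and 417 against P56. The cell type difference at P35 differed from that at P28 in 304 genes (1.74%), 113 with a higher (0.647%) and 191 with a lower value (1.09%) at P35. Cyp4v3, a cytochrome P450, differed by 1.97 at P35 against -1.52 at P28, a change of 3.49 ± 0.53 (limma adjusted p = 0.000962). Mrps18c, a mitochondrial ribosomal protein, differed by -1.26 at P35 against 1.08 at P28, a change of -2.34 ± 0.41 (adjusted p = 0.00443). Among the 10 leading genes of this contrast, the calls of Cyp4v3, Mrps18c and Snrpb2 held when any 1 array or either pair of Purkinje replicates was left out, with changes of 3.16 to 3.82, -2.65 to -2.03 and -2.81 to -1.99, although the P35 difference of Mrps18c itself was -0.95 and not called without Stellate/Basket replicate 1. The other 7, Cd24a (-2.51), Lnx1 (2.99), Atad2b (2.97), Pcdhb21 (2.44), Tgs1 (2.39), Tmem205 (-2.49) and Eif4e2 (-2.44), each lost the call without Stellate/Basket replicate 1, with values of -2.32, 2.45, 1.95, 2.26, 1.58, -1.98 and -1.70. The count of 304 was between 83 without Stellate/Basket replicate 1 and 529 without replicate 2, and 1251 without Purkinje replicates 1 and 2.

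Against P56, 2650 genes (15.2%) differed, 990 with a higher (5.66%) and 1660 with a lower value (9.5%) at P35. With quantile normalization the split was 1482 and 1424. Prdm8 changed by -6.19 ± 0.26 (limma adjusted p = 2.20e-17), Sgk1, a kinase induced by glucocorticoids and stress, by -5.61 ± 0.48 and Lypd6 by -5.45 ± 0.95. Cyp4v3 changed by 3.75 ± 0.58, Itih3 by 3.88, Acta1 by 3.86, Grik3 by -5.59 and Cdc42ep3 by -5.26. Of the 10 leading genes only F2r (4.76, and 3.22 without Stellate/Basket replicate 1) and Ankrd6 (4.57, and 4.53 without replicate 2) lost the call when arrays were left out. Marker lists moved between these ages: interneuron markers averaged 8.78 ± 0.54 (SD, n = 2) in Stellate/Basket arrays at P35 and 6.16 ± 0.32 (n = 2) at P56, and Purkinje markers 9.90 ± 0.19 and 11.58 ± 1.05. In Purkinje arrays the same lists were at 6.04 ± 0.11 and 12.49 ± 0.06 (n = 4) at P35. At P56 interneuron markers ran from 5.93 to 6.39 in Stellate/Basket arrays and from 5.83 to 6.12 in Purkinje arrays. Purkinje markers were at 10.84 and 12.33 in the 2 Stellate/Basket arrays of P56. These 2 arrays differed from each other by more than 1 in 3585 genes (r = 0.853), against 1273 genes for the 2 of P35. The part of the marker lists and of this spread in the 2650 genes was not tested.

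Against the mean of the other 4 ages 117 genes (0.669%) differed at P35, 27 higher (0.154%) and 90 lower (0.515%), or 68 and 130 with quantile normalization. Trhde, an enzyme that degrades thyrotropin-releasing hormone, was at 4.41, 4.40, 4.48 and 4.39 in Purkinje arrays and at 6.94 and 6.33 in Stellate/Basket arrays of P35, a difference of -2.22. At P14, P21, P28 and P56 it was -0.12, -0.93, -0.03 and 0.01, and the change of -1.95 ± 0.29 (limma adjusted p = 0.00105) held when any of the 6 arrays was left out. Cd24a changed by -2.59 ± 0.57 (adjusted p = 0.0277), a call lost without Purkinje replicate 3 (-2.55) or Stellate/Basket replicate 1 (-2.39). Cyp4v3 changed by 2.34 ± 0.45 (adjusted p = 0.0123), a call lost without Stellate/Basket replicate 1 (2.26). Trhde was the only one of the 10 leading genes of this contrast that kept its call in every such setting: Fastkd2 (2.15), Dock11 (2.01), Kdm3a (1.86), Fam102b (1.82), Cidea (-2.48), Uxs1 (-2.03) and Phtf2 (-1.93) also lost it without Stellate/Basket replicate 1, with values of 1.05, 1.96, 1.34, 0.60, -2.79, -2.28 and -1.39. The count of 117 was 38 without Stellate/Basket replicate 1, 369 without its replicate 2 and 42 without Purkinje replicate 3.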

How the data were processed

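Hand-sorted Purkinje and Stellate/Basket cells were profiled on Affymetrix MOE430.2 arrays. The authors deposited log2 expression values per probe set. Per the submitters' processing notes, GCRMA and R 2.9.1 were involved, with no role or order stated. The values carry no detection calls, which makes differences against values near the low end uncertain.

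Of 45101 probe sets, the 34958 with 1 gene symbol were used, 932 with several and 9211 with none being left out. For each gene the probe set of highest mean was taken. Of 18194 genes, 17478 exceeded log2 5 in at least 3 arrays and were tested, with no further scaling. limma 3.58.1 (R 4.3.3) fitted 1 mean per cell type and age over 40 arrays, with moderated variances and Benjamini-Hochberg adjustment, and 2 columns that are averages of others were left out.

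The genes described were drawn from the 15 largest called genes without overlap in each direction and the checks of the sort. From each list of markers or of genes of one function, the 4 called members with the largest differences per direction were eligible (the 2 largest where fewer than 2 were called). Also eligible were the 5 leading genes per direction of each contrast between ages and the 6 called genes with the widest spread in either cell type. Not every eligible gene is described. The comparison, members and lists were chosen with earlier results of these data known. Alternatives covered filters, probe set summary, variance model, array weights, replicate block, scaling, thresholds and left-out arrays. The Xist classes, split at log2 9, and the pairs of Purkinje replicates were added after seeing the data. On simulated data with 17478 genes, 85.1%, 91% and 98.5% of genes changed by 1.5, 2 and 3 at P35 were recovered. The simulated noise was independent between arrays with 1 spread per gene, whereas the Purkinje arrays of P35 fell into 2 close pairs. The recovered shares may therefore not hold for the P35 arrays themselves. Figures used matplotlib 3.10.9.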

Additional observations from a re-analysis of the deposited data

Results flagged for a closer look

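Among 257 named genes, 13 (5.1%) had 1 of the 4 Purkinje arrays of P35 far from the other 3, where chance gives about 1 in 20. Purkinje replicate 1 was the array that stood apart in 7 of them. It was highest for Aqp4, a water channel of astrocyte endfeet, at 7.18 against 5.28 to 5.46 in the others, for Slc1a2 at 9.17 against 7.21 to 7.48, for Glul at 8.69 against 8.07 to 8.14 and for Ptprz1 at 7.97 against 6.69 to 6.73. It was also highest for Rgs5, a gene of pericytes, at 6.11 against 5.55 to 5.61 and for Rpsa, a ribosomal protein gene, at 10.28 against 9.65 to 9.72. It was lowest for the adhesion molecule Opcml at 9.49 against 10.13 to 10.16.

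Purkinje replicate 2 was lowest for Gabra6, a GABA-A subunit of granule cells, at 5.40 against 5.62 to 5.64, for Abhd6, an endocannabinoid hydrolase, at 10.30 against 10.53 to 10.55, for Adamts4, a matrix protease, at 8.51 against 9.10 to 9.22, and for Slc7a3 at 5.60 against 5.87 to 5.89. Replicate 3 was highest for Slc1a6 at 13.42 against 13.02 to 13.07 and for Cacna1g at 10.63 against 10.25 to 10.31.

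Tests of the cell type difference at P35 against that at other ages called 304 genes against P28, 2650 against P56 and 117 against the mean of the other 4 ages.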

How the results depend on the processing

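Of the 231 named genes called at P35, 230 kept their direction and 133 their call under every alternative run, and Vtn alone reversed, running from -3.95 without Stellate/Basket replicate 1 to 0.03 without replicate 2, which is also its value in the high-Xist arrays. The 1985 calls at P35 stayed within 1.5 times under all alternatives except no minimum difference (3373), and ranged from 1590 to 2074 with 1 array left out. They were 1481 when only the 6 arrays of P35 were fitted. The counts between ages depended more on the processing.

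Against P28 the 304 genes became 194 with the mean of probe sets, 609 with array weights, 45 at an adjusted p under 0.01, 617 with all 42 columns, 562 with the 90th percentile as covariate, 1251 without Purkinje replicates 1 and 2 and 68 without replicates 3 and 4. Leaving out 1 array gave 83 to 529. Against P56 the 2650 became 417 with array weights, 4362 with no minimum difference, 1552 at 0.01, 1690 with the 90th percentile (885 higher and 805 lower) and 1637 without Purkinje replicates 1 and 2. Against the other 4 ages the 117 became 67 with the mean of probe sets, 12 with array weights, 198 with quantile normalization, 7 at 0.01, 340 with all 42 columns, 215 with the 90th percentile, 256 and 365 without either pair of Purkinje replicates and 209 without P56. Leaving out 1 array gave 38 to 369. The causes were not tested.

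Replicates 1 and 2 of the cell types share only a number. With 2 Stellate/Basket arrays their deviations mirror each other, and the deviations correlated at 0.173 for number 1 and at -0.119 for number 2. With that number as a replicate block 1971 genes were called at P35 and 68 against the other 4 ages. The number of arrays limits what can be seen.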
